A study of Mus musculus with 15 samples.

Results

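The comparison described here is that of 3134 cells after 4 h of 100 nM dexamethasone with 3134 cells at 0 h, which takes 4 of the 15 arrays of the series, 2 at each time. 3134 is a mouse mammary line made by transforming C127 cells, which came from a mammary tumor of an RIII mouse. The other arrays hold 3134 cells at 2 h and 8 h and AtT-20 cells, a mouse corticotroph line of the pituitary, over the same times. All cells had spent 48 h in serum stripped of steroids with charcoal before the hormone was added. The labels call the 0 h cells untreated in one place and vehicle treated in another. No array holds cells kept for 4 h without hormone, so an effect of dexamethasone and one of time in culture cannot be told apart. The 2 arrays of each time were paired by run, which here means only the lower and the higher set of serial numbers in the sample titles. The labels do not say that the replicates were separate cultures, so the p-values reflect how far these arrays vary, a spread that may be technical.

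Dexamethasone is a synthetic glucocorticoid. It binds the glucocorticoid receptor, the product of Nr3c1, which then leaves its chaperones, enters the nucleus and binds glucocorticoid response elements in DNA. There it raises the transcription of one set of genes, and it lowers that of another, among them many targets of the inflammatory factors NF-kB and AP-1. Mammary epithelium responds to glucocorticoids during lactation, and lines of this tissue have long been used to study the receptor on chromatin.

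The arrays carry exon probesets, small groups of probes within an exon. The value of a gene is the median over its probesets (log2 scale), for the 15025 genes with at least 3 probesets that map to 1 gene. Of these, 9919 were tested, because their mean in some group of line and time was at least log2 6.59, the 40th percentile of all values, called the detection level below. All 15 arrays were brought to 1 distribution by quantile normalization, since the deposited medians of the 4 compared here were 8.14 and 7.83 in run 1 but 7.16 and 6.91 in run 2 (0 h and 4 h). Levels of different genes are not set against each other, as probes differ in brightness. The mesenchymal gene Vim was at 13.21 and 13.23 at 0 h, while the epithelial genes Epcam (4.09 and 4.56) and Cdh1 (5.80 and 5.65) lay below the detection level on all 4 arrays. Of 22 epithelial markers with a value, 4 had a 0 h mean at the level, against 12 of 20 fibroblast markers, so the epithelial label rests on few markers here. The immune gene Ptprc (3.90 and 3.52) and the endothelial gene Pecam1 (4.16 and 4.94) were below it too. Of 19 immune markers with a value, 3 had a 0 h mean at the level, as did 1 of 11 endothelial markers.

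The first question was which transcripts differed after 4 h. At an adjusted p under 0.05 by limma, 326 genes were higher and 189 were lower, or 5.19% of the genes tested (3.29% higher and 1.91% lower). The fit pairs arrays by run, so a gene that passes is likely to move the same way in both runs; all 515 did, as did 6369 of the 9919 genes tested. A small p also favours arrays that do not overlap between the times, and the share of all tested genes without overlap was not counted. Among genes that passed, both 4 h arrays lay above both 0 h arrays in 324 of the 326 and below both in 185 of the 189. The median log2 fold change was 0.92 among the higher genes, -0.77 among the lower ones and -0.02 over all genes tested. At least 2-fold changes numbered 146 up and 50 down, and at least 4-fold changes 29 up and 3 down. Of the higher genes, 70 started below the detection level, and 29 of the lower genes ended below it, so background limits the measured size of these changes. Among them, 25 higher and 4 lower genes had means below it at both times. These were tested through other groups, and their changes are not resolved. Without the run as a term, 189 genes passed (134 higher and 55 lower, also 1.91% of those tested), all of them among the 515. On the scale as deposited, on which the median change over all genes was -0.31, the split turned to 131 higher and 340 lower, or 27.8% higher in place of 63.3%.

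**Figure D1:**
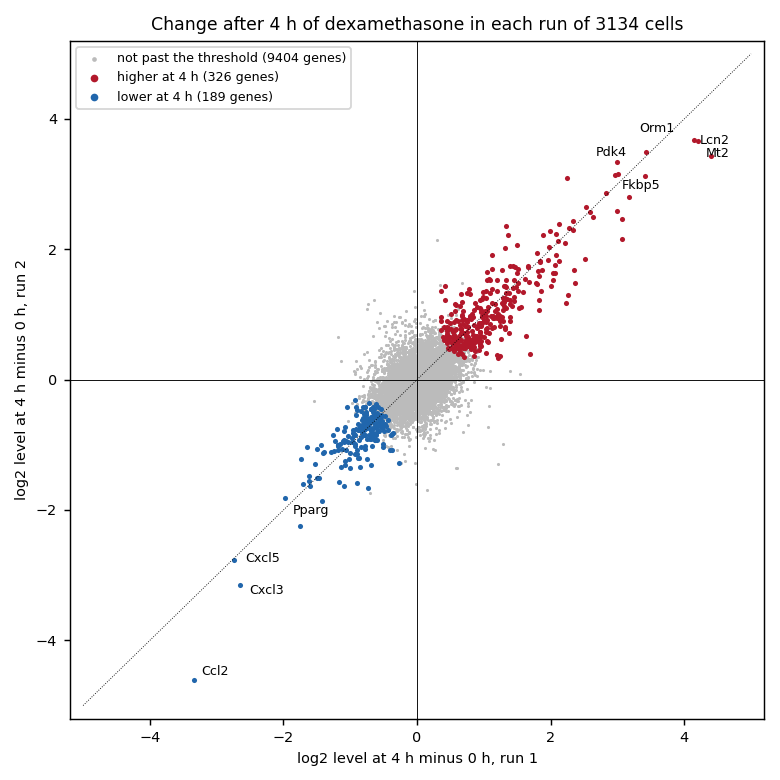
Log2 level at 4 h minus 0 h in run 1 (horizontal) and run 2 (vertical) for the 9919 tested genes, 1 point each; red and blue mark genes called higher (326) and lower (189), and the dotted line marks equal change. The called genes lie in the corners where both runs moved the same way, with Mt2, Orm1 and Lcn2 at the upper end and Ccl2 at the lower end.

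The largest measured rises belonged to secreted defence proteins, a metal binding protein and a brake on glucose oxidation. Mt2, a metallothionein that binds zinc and copper, was at 7.84 and 7.16 at 0 h and at 12.05 and 10.82 at 4 h (runs 1 and 2). It thus rose 15.3-fold (log2 fold change 3.94 ± 0.18, SE, adjusted p = 1.43e-07). Orm1, an acute phase plasma glycoprotein, went from 6.71 and 6.15 to 10.85 and 9.83, a 15.04-fold rise. Lcn2, which takes up bacterial iron carriers, went from 7.61 and 8.06 to 12.0005 and 11.48, or 15.03-fold. In each of these genes the 4 h arrays lay more than 2 log2 units above both 0 h arrays. Pdk4, the kinase that switches off pyruvate dehydrogenase, was at 6.35 and 6.62 and then at 9.77 and 10.11 (10.99-fold, adjusted p = 8.98e-08). Orm2, the neighbouring relative of Orm1, rose 9.64-fold, with array levels of 6.51 and 6.69 before and 9.92 and 9.82 after. Orm1 and Orm2 are close relatives, as are Mt1 and Mt2, and probes of one can catch the transcript of the other. Orm1, Orm2 and Pdk4 started near the detection level, so background limits the measured size of their rises.

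The next rises came from genes of the cytoskeleton, receptor feedback and transport. Fam107a, a stress-induced actin binding protein, was at 5.67 and 5.93 at 0 h, below the detection level, and at 8.67 and 9.27 at 4 h (log2 fold change 3.17 ± 0.18, SE). Tns1, the tensin that ties integrins to actin, rose 8.48-fold, from 7.97 and 7.64 to 10.98 and 10.79. Fkbp5, a co-chaperone that lowers the receptor's affinity for hormone, was at 9.68 and 9.62 and then at 12.64 and 12.76, an 8.27-fold rise (adjusted p = 1.43e-07). The 2 arrays of each time differed by 0.12 or less in Fkbp5, against a change of 3.05. Arrdc2, an alpha-arrestin, rose by 2.99 ± 0.16 (log2, SE). The rise of Slc10a6, which carries sulfated steroids into cells, was 2.84 ± 0.17. Slc10a6 was at 4.39 and 4.69 at 0 h and at 7.21 and 7.55 at 4 h. Amy1, an amylase gene with close copies in the genome, went from 4.47 and 4.25 to 7.55 and 6.40, so run 2 ended below the detection level.

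**Figure D2:**
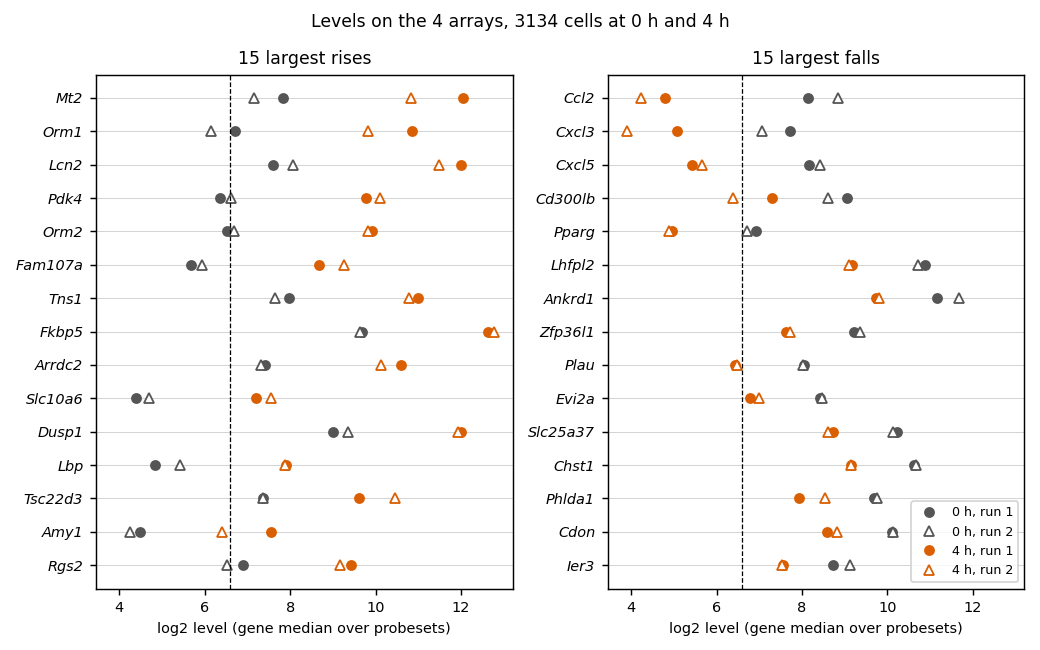
Log2 levels of the 15 genes with the largest rises (left) and falls (right) on the 4 arrays; grey is 0 h, orange is 4 h, circles are run 1 and triangles run 2, and the dashed line is the detection level of 6.59. The orange and grey points of each gene do not overlap. Orm1, Orm2, Pdk4, Fam107a, Slc10a6, Lbp and Amy1 are among those that start near or below the line, and Ccl2, Cxcl3, Cxcl5, Pparg and Plau among those that end below it.

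Counts over the gene lists below cover tested members only. Each is to be set beside the share over all 9919 genes tested, 3.29% higher and 1.91% lower. The lists were chosen with earlier results of these data known, so a count above that share describes the members and is no test of a list. Without the run term, 134 of the 9919 were higher and 55 lower. A member can be tested through the 1 group in which it is high, so counts and medians of lists with many members below the detection level describe the tested members and support nothing about the list. Of the 29 tested genes listed as glucocorticoid induced, 19 were higher and 0 lower (18 and 0 without the run term), with a median log2 fold change of 1.84. Besides Mt2, Pdk4, Fkbp5 and Arrdc2 they included Dusp1, which switches off MAP kinases, at 9.002 and 9.34 at 0 h and at 11.99 and 11.93 at 4 h. Tsc22d3, which encodes the anti-inflammatory leucine zipper protein GILZ, went from 7.37 and 7.36 to 9.62 and 10.46 (log2 fold change 2.67 ± 0.20, SE, adjusted p = 5.27e-06). Glul, glutamine synthetase, went from 9.41 and 9.44 to 11.99 and 12.02 and had 2 arrays within 0.03 of each other at each time. Per1, a repressor of the circadian clock, rose 5.92-fold, from 7.22 and 7.41 to 9.86 and 9.91, and all 33 of its probesets were higher. Sgk1, a kinase that promotes sodium uptake, went from 7.99 and 8.34 to 10.33 and 10.03, with 18 of its 23 probesets higher and 5 lower. The list was drawn from knowledge of this hormone, so its direction says little beyond that knowledge. Among the members that did not pass, Tat, the liver enzyme tyrosine aminotransferase, was at a log2 fold change of -0.03. Angptl4, a lipase inhibitor, was at a log2 fold change of -0.61 (adjusted p = 0.067), and Txnip, the thioredoxin inhibitor, at 0.37 (adjusted p = 0.249). Zfp36, which speeds the decay of cytokine transcripts, went from 6.59 to 8.13 in run 1 and from 6.10 to 6.19 in run 2, so the runs disagreed in size (adjusted p = 0.163).

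Transcript of the receptor itself was lower. Nr3c1 was at 10.39 and 10.47 at 0 h and at 9.49 and 9.40 at 4 h, a 1.99-fold fall (log2 fold change -0.99 ± 0.14, SE, adjusted p = 0.000815), and all 11 of its probesets were lower. Of 18 tested receptor, chaperone and cofactor genes, 2 were higher, Fkbp5 and the acetyltransferase Ep300, and 1 was lower, Nr3c1. Ep300 went from 9.18 and 9.42 to 9.94 and 9.95 (adjusted p = 0.014; 0.0805 without the run term). The chaperone Hsp90aa1 was at -0.05 and the coactivator Ncoa2 at -0.06, and the median of the list was -0.03.

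Letters of the glucocorticoid response element were looked for near transcription starts. Promoter windows of 300 bases, 250 before to 50 after each start, were taken from RefSeq (GRCm38.p6), and 96 of 123 named genes had one. The palindrome searched was AGAACA, any 3 bases, then TGTTCT, with up to 2 mismatches in its 12 fixed bases. It reads the same on both strands. In all, 2.10% of 27025 genes with a window held it, as did 1.05% of tested genes. Among genes that passed, the share was 2.23% of 269 higher genes and 1.37% of 146 lower genes, and 4 of the 24 at least 4-fold higher genes with a window held it (16.7%). Those 4 and 1 gene that fell, Slc7a1, are shown for comparison, each on its own strand, with the match in capitals.
Sgk1, chr10:21993671-21993745: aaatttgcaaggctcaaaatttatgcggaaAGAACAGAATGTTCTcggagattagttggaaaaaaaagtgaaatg
Fam107a, chr14:8309854-8309928: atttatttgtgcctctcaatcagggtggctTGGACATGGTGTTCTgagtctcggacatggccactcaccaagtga
Slc10a6, chr5:103629523-103629597: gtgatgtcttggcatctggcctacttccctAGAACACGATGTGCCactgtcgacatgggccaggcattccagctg
Amy1, chr3:113577923-113577997: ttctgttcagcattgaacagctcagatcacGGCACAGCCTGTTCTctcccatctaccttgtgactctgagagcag
Slc7a1, chr5:148392855-148392929: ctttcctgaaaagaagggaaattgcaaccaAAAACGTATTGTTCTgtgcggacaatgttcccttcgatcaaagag
The Sgk1 match has 0 mismatches and begins at position -189 from the start site of 1 of the gene's 6 windows. The other 4 matches have 2 mismatches. The best match over all windows of a gene was kept (3 windows for Fam107a, 2 each for Amy1 and Slc7a1, 1 for Slc10a6). A gene with more windows has more chances to match, and the shares were not adjusted for this. Sgk1 and Slc10a6 lie on the plus and the minus strand of their chromosomes, and Fam107a, Amy1 and Slc7a1 on the minus strand. A match is a description of letters and not a site of binding.

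Among acute phase proteins, made mostly by the liver in inflammation, several secreted defence proteins rose. Of 19 with a value, 8 were tested, of which 6 were higher and 0 lower (4 and 0 without the run term). The 8 had 4 members at the detection level at 0 h and 7 at 4 h, so some entered the test through groups in which they are high. The members not tested, among them the fibrinogen genes Fga, Fgb and Fgg, had means below the level at both times. Lbp, which binds bacterial lipopolysaccharide, rose from 4.83 and 5.41, below the detection level, to 7.89 and 7.88 (log2 fold change 2.77 ± 0.19, SE). Serpina3n, a protease inhibitor, went from 5.86 and 5.78 to 6.82 and 7.01 (adjusted p = 0.0235; 0.0717 without the run term). Hp, haptoglobin, went from 5.63 and 4.95 to 6.52 and 6.06 and stayed below the detection level at both times. The complement gene C3 was at -0.23 and the copper carrier Cp at -0.04, and neither passed. Among 10 genes of metal binding and transport, Mt1 (11.37 and 10.67 to 13.16 and 12.62), Mt2 and the zinc importer Slc39a14 (9.27 and 9.40 to 10.93 and 11.14) were higher and 0 were lower. The zinc exporter Slc30a1 was at 0.08 and Mtf1, the zinc sensor that drives metallothioneins, at -0.31.

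Chemokines, the secreted proteins that attract white blood cells, included the largest falls. Of 22 with a value, 9 were tested, of which 0 were higher and 7 lower (6 without the run term). The 9 had 8 members at the detection level at 0 h and 5 at 4 h, so Ccl2, Cxcl3 and Cxcl5 were tested through groups in which they are high. The members not tested, among them Ccl5 and Cxcl10, had means below the level at both times. Ccl2, which attracts monocytes, was at 8.14 and 8.84 at 0 h and at 4.79 and 4.22 at 4 h, a 15.8-fold fall (log2 fold change -3.98 ± 0.50, SE, adjusted p = 0.000357). Both 4 h arrays lie below the detection level, so the size of this fall is not resolved. The neutrophil chemokine Cxcl3 fell from 7.72 and 7.05 to 5.07 and 3.90 (adjusted p = 1.42e-05), and Cxcl5 fell from 8.17 and 8.42 to 5.43 and 5.65 (adjusted p = 2.78e-06). Smaller falls were those of Cxcl12, which guides stem and immune cells (-1.22), Cxcl1 (-1.19), the membrane-bound Cx3cl1 (-1.17) and Ccl7 (-0.90). Cxcl12 lost its call without the run term (adjusted p = 0.0542). Ccl25 was at -0.03 and Ccl3, which was below the detection level on all 4 arrays, at 0.34.

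Of 15 tested cytokines and receptors, 0 were higher and 4 lower, and none of the 4 passed without the run term (adjusted p = 0.0815 to 0.637). Csf1, the macrophage growth factor, went from 11.03 and 11.40 to 10.13 and 10.26, and Il1r1, the interleukin-1 receptor, from 9.15 and 9.30 to 8.07 and 8.36. The alarmin Il33 was at -0.79 and the TNF receptor gene Tnfrsf1b at -0.63. Of 16 genes of the NF-kB system, 0 were higher and 4 lower (1 without the run term): the subunits Nfkb2 (-0.66) and Rel (-0.61), the inhibitor Nfkbie (-0.75) and the adaptor Traf1 (-0.67). The subunit Rela was at -0.20. Nfkbia, the inhibitor that glucocorticoids raise in many cells, went from 9.90 and 9.68 to 10.71 and 9.91, and it did not pass (adjusted p = 0.149). Of 14 SOCS, STAT and JAK genes, 0 were called either way by limma at the adjusted threshold, and Socs3 came closest with -0.50 (adjusted p = 0.0571). Cd300lb, a receptor of myeloid cells, fell from 9.04 and 8.61 to 7.29 and 6.37. It was the 1 immune marker of 3 tested that passed, while Ptprc and Csf1r were below the detection level on all 4 arrays.

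A motif of NF-kB, kappa B, was counted in the same windows as GGG, any 2 bases, TTTCC, on both strands. It was in 1.89% of all genes with a window, 1.94% of tested genes, 1.86% of higher genes and 6.16% of lower genes (9 of 146), and in 0 of the 24 at least 4-fold higher genes. The windows of 4 genes that fell are shown, chosen after their values were seen, with the match in capitals on the strand of the gene.
Cxcl3, chr5:90786013-90786052: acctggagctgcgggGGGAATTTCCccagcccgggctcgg
Cxcl1, chr5:90891159-90891198: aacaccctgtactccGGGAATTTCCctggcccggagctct
Cd300lb, chr11:114934391-114934430: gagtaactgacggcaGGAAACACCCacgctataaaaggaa
Csf1, chr3:107760599-107760638: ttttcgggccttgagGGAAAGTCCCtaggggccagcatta
In Cxcl3 and Cxcl1, neighbouring chemokine genes on the plus strand, the same letters begin at positions -73 and -71 from the start, and in Cd300lb and Csf1, both on the minus strand, the motif is on the opposite strand of the gene. Shares of other motifs were 7.06% of higher genes and 16 of 146 lower genes for TGANTCA (AP-1, 6.03% of tested genes), 13.0% and 14.4% for TTGCNNAA (C/EBP, 9.57%) and 8.55% and 15.8% for CACGTG (E-box, 12.1%).

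**Figure D3:**
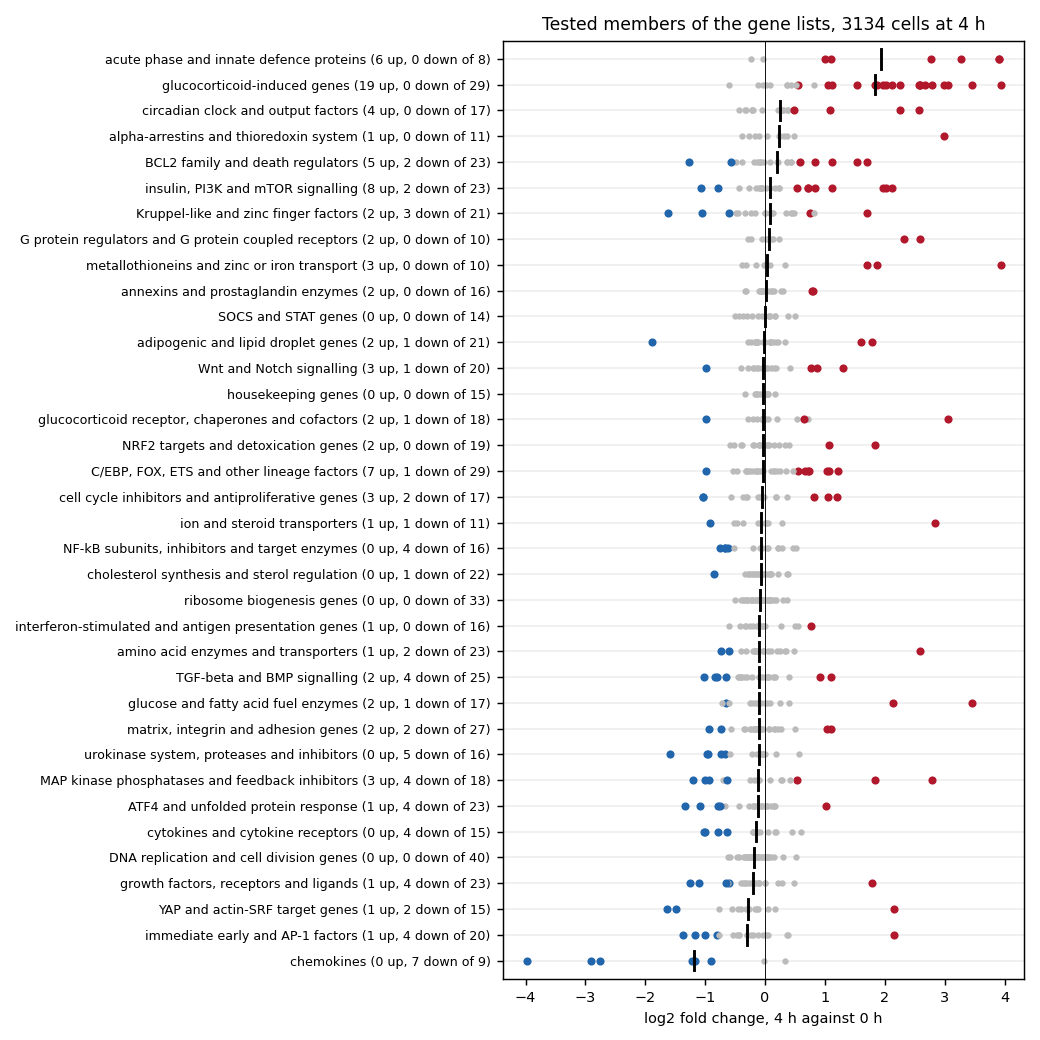
Log2 fold change at 4 h against 0 h of every tested member of the gene lists, ordered by the list median (black bar); red and blue points passed as higher and lower, and grey points did not pass. Members that were not tested are not drawn, which leaves 8 of 19 acute phase genes at the top and 9 of 22 chemokines at the bottom, and the glucocorticoid-induced genes have a median of 1.84.

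Brakes on growth factor signalling split in both directions. Of 18 MAP kinase phosphatases and feedback inhibitors, 3 were higher and 4 lower (2 and 3 without the run term). Dusp1 and Errfi1, an inhibitor of the EGF receptor, rose, and Errfi1 went from 9.29 and 8.37 to 10.62 and 10.73 (adjusted p = 0.000333). Dusp7 rose by less (0.53, adjusted p = 0.0443). Dusp4, a phosphatase of the same family as Dusp1, fell from 9.55 and 9.21 to 8.27 and 8.09, and Dusp8 (-0.94), Lrig1 (-0.997) and the Ras inhibitor Rasa1 (-0.63) were lower as well. Of 23 growth factors and receptors, 1 was higher, the lymphatic growth factor Vegfd (8.31 and 8.65 to 9.81 and 10.71), and 4 were lower (1 and 2 without the run term). These were the neurotrophic factor Gdnf (8.63 and 8.75 to 7.24 and 7.64), the PDGF receptor Pdgfrb (10.89 and 10.80 to 9.71 and 9.78), Vegfa (-0.65) and Ereg (-0.60). Of 10 G protein regulators and receptor genes, 2 were higher and 0 lower. Rgs2, which ends signals of Gq-coupled receptors, rose 6.004-fold, and the vasoconstrictor gene Edn1 went from 5.51 on both arrays to 7.85 and 7.81.

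Factors of the rapid growth response, apart from Ccn2, were lower or did not pass. Of 20 immediate early and AP-1 genes, 1 was higher and 4 lower (1 and 1 without the run term). The 1 that rose was Ccn2, a matricellular protein also driven by TGF-beta and YAP, from 7.42 and 7.31 to 9.51 and 9.55. Ier3, Fosl2 (10.44 and 10.04 to 9.20 and 8.95), Ier2 (-1.002) and Egr2 (-0.81) fell, and of these Ier3 alone passed without the run term. Jun was at -0.54 (adjusted p = 0.0808) and Myc at -0.46 (adjusted p = 0.128), and Fos and Egr1 lay below the detection level. Among 21 Kruppel-like and zinc finger factors, 2 were higher and 3 lower (1 and 1 without the run term). Klf15, a regulator of amino acid and glucose use, rose from 5.78 and 6.27 to 8.01 and 7.44, and Klf2 rose by 0.76. Klf4 (-1.06) and Klf6 (-0.60) fell with Zfp36l1, which speeds decay of AU-rich transcripts. Zfp36l1 went from 9.22 and 9.37 to 7.62 and 7.73 (adjusted p = 3.81e-05), but its adjusted p was 0.346 without the run term. Its AtT-20 arrays, which enter the same spread, stood at 3.73 and 5.45 at 0 h, and their part in this was not tested.

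Of 29 lineage factors, 7 were higher and 1 lower (2 and 0 without the run term), against 3.29% higher and 1.91% lower among all genes tested. Foxo3, a factor of fasting and stress, rose from 10.07 and 9.94 to 11.34 and 11.12, and Foxo1 from 8.96 and 9.31 to 9.61 and 10.14. Sox4 (1.04), Id1 (1.06), Id2 (0.67), Meis2 (0.72) and Cebpb (0.56) rose too, and the Notch target Hes1 fell from 7.20 and 7.83 to 6.45 and 6.61. Of 17 clock genes, 4 were higher and 0 lower (3 without the run term): Per1, Per2 (6.86 and 7.16 to 8.14 and 8.06), the output repressor Nfil3 (8.56 and 8.70 to 10.69 and 11.09) and Bhlhe41 (0.49, adjusted p = 0.0443). The activators Arntl and Clock were at 0.25 and -0.05 and did not pass.

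Of 17 enzymes of glucose and fatty acid use, 2 were higher and 1 lower (2 and 0 without the run term). Besides Pdk4, Pfkfb3, which makes the activator of glycolysis, rose from 6.18 and 6.13 to 8.17 and 8.40, and Cpt1a, the gate of fatty acid oxidation, fell (-0.66, adjusted p = 0.0127). Of 23 genes of insulin, PI3K and mTOR signalling, 8 were higher and 2 lower (6 and 1 without the run term), against 3.29% higher and 1.91% lower among all genes tested. Ddit4, an inhibitor of mTOR, went from 9.33 and 9.01 to 11.44 and 11.14, and Sesn1, another inhibitor of that pathway, from 7.81 on both arrays to 9.94 and 9.63. Trib2 (1.12), Mtor itself (0.83), Pik3r1 (0.72), Trib1 (0.71) and Deptor (0.53) rose with Sgk1. The insulin receptor substrate Irs1 fell from 11.28 and 10.97 to 10.21 and 9.89, and Trib3 fell by 0.78 on the log2 scale.

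Of 21 adipogenic and lipid droplet genes, 2 were higher and 1 lower, with or without the run term. Pparg, the master factor of fat cells, fell from 6.93 and 6.71 to 4.95 and 4.89, below the detection level (log2 fold change -1.90 ± 0.16, SE, adjusted p = 2.17e-05). Fabp4, a fatty acid carrier known as a Pparg target, rose from 6.08 and 6.25 to 8.12 and 7.77, and the droplet coat gene Plin4 from 8.94 and 8.75 to 10.41 and 10.48. Of 22 cholesterol genes, 0 were higher and 1 lower, Insig1 (-0.85), which lost its call without the run term (adjusted p = 0.089). Of 23 amino acid genes, Glul was higher, and the transporters Slc6a9 (-0.73) and Slc7a1 (-0.60, adjusted p = 0.112 without the run term) were lower. Of 23 genes of ATF4 and the unfolded protein response, 1 was higher and 4 lower (0 and 2 without the run term). The stress factor Ddit3 fell from 8.24 and 8.05 to 7.06 and 7.05, and the glutathione-degrading enzyme Chac1 from 8.91 and 8.68 to 7.27 and 7.65. Trib3 and Nupr1 (-0.75) fell with them and Herpud1 rose (1.02), while the chaperone Hspa5 was at 0.10.

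Survival and growth arrest genes also moved in both directions. Of 23 BCL2 family and death regulators, 5 were higher and 2 lower (3 and 0 without the run term). Bcl2l1, whose long product blocks apoptosis, rose from 9.03 and 9.28 to 10.87 on both arrays. Gadd45g (7.82 and 8.25 to 9.65 and 9.48), Trp53inp1 (1.12), Gadd45b (0.83) and Casp12 (0.58) rose, and Gadd45a fell from 10.22 and 10.33 to 8.81 and 9.20, so members of the Gadd45 family went different ways. Bid, which promotes death, fell by 0.58. Of 17 cell cycle inhibitors, 3 were higher, Tob2 (1.20), Cdkn1a (9.82 and 9.88 to 10.97 and 10.83) and Ccng2 (0.82), and 2 were lower, Btg1 (-1.03) and Gas1 (-1.03). Ccng2 and Gas1 did not pass without the run term (adjusted p = 0.089 and 0.336). Of 40 DNA replication and cell division genes and 33 ribosome biogenesis genes, limma called 0 either way, with medians of -0.18 and -0.08. Pcna was at -0.58 (adjusted p = 0.0612) and Cdc6 at -0.61 (adjusted p = 0.166). Of 15 housekeeping genes, 0 passed, and their changes ran from -0.34 to 0.17.

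Of 16 members of the urokinase system, proteases and inhibitors, 0 were higher and 5 lower (1 without the run term). Plau, urokinase, fell from 8.05 and 8.03 to 6.44 and 6.48 (log2 fold change -1.58 ± 0.18, SE). Both of its 4 h arrays lay below the detection level, so the size of this fall is not resolved. Its receptor Plaur fell from 8.26 and 8.10 to 7.30 and 7.14. Adamts1 (-0.97), Timp3 (-0.73) and the tissue activator Plat (-0.67) fell too. Of 27 matrix and adhesion genes, the basement membrane collagens Col4a1 (9.15 and 9.23 to 10.17 and 10.29) and Col4a2 (9.12 and 9.41 to 10.29 and 10.46) rose, and Thbs1 (-0.93) and Cd44 (-0.74) fell (1 higher and 1 lower without the run term). Of 15 YAP and actin targets, Ccn2 was higher and Ankrd1 (11.16 and 11.67 to 9.73 and 9.81) and Phlda1 (9.68 and 9.76 to 7.94 and 8.54) were lower. Of 25 TGF-beta genes, 2 were higher, the coreceptor Tgfbr3 (0.92) and the activin binder Fst (1.11), and 4 were lower, Smad3 (9.71 and 9.72 to 8.60 and 8.79), the receptor Tgfbr2 (-0.83), Smurf1 (-0.80) and Tgif1 (-0.66). Of these 6, Fst and Smad3 passed without the run term. Of 20 Wnt and Notch genes, Wnt10b (1.31), Jag1 (0.87) and Lrp5 (0.76) rose and Hes1 fell, and Jag1 and Hes1 lost their calls without the run term (adjusted p = 0.0959 and 0.0914).

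For the remaining lists, the members that passed are given, against 5.19% of all genes tested that passed. Aldh1a1, which makes retinoic acid, rose from 7.55 and 7.52 to 9.58 and 9.16, and Gclc, which limits glutathione synthesis, from 9.56 and 9.86 to 10.73 and 10.82, the 2 higher of 19 NRF2 and detoxication genes. Of 16 annexins and prostaglandin enzymes, Anxa4 (0.79) and Ptgds (0.79) rose, and the glucocorticoid-linked Anxa1 was at -0.08 (adjusted p = 0.901). Of 16 interferon and antigen presentation genes, Isg20 rose (0.77). Anxa4, Ptgds and Isg20 did not pass without the run term (adjusted p = 0.095, 0.958 and 0.322). Aqp5, a water channel, fell from 10.98 and 10.63 to 10.20 and 9.56 (adjusted p = 0.157 without the run term), and Slc10a6 was the 1 higher gene of 11 ion and steroid transporters. Of the 15 largest falls, those in no list were Lhfpl2 (-1.66), Evi2a (-1.55), the mitochondrial iron carrier Slc25a37 (-1.51), the keratan sulfotransferase Chst1 (-1.49) and the hedgehog coreceptor Cdon (-1.41). Evi2a lost its call without the run term (adjusted p = 0.25). The corticotroph marker Neurod1 passed as lower (-0.74) from levels below the detection level, where its change cannot be resolved. It lost the call in 9 alternatives, with an adjusted p of 0.572 without the run term, and its change was -0.37 without the 4 h array of run 1.

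How 4 h compares with the earlier and later times was asked of the same cells, with the 4 h arrays shared by both comparisons. Between 2 h and 4 h, limma called 2 genes, or 0.0202% of those tested (1025 had an unadjusted p under 0.05). Tns1 was at 9.68 and 9.19 at 2 h and at 10.98 and 10.79 at 4 h (log2 difference 1.45 ± 0.18, SE, adjusted p = 0.0199). Dlgap2, a scaffold gene of synapses, was at 7.97 and 7.61 at 2 h and at 6.15 and 6.46 at 4 h (-1.48 ± 0.17, adjusted p = 0.0151). Its 4 h arrays lay below the detection level, so the size of its fall is not resolved. Both genes lost the call without the run term, where 0 genes passed and 332 had an unadjusted p under 0.05. Lbp, by value, was at 7.03 and 6.92 at 2 h and at 7.89 and 7.88 at 4 h, and Per1 at 9.93 and 10.08 and then 9.86 and 9.91.

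Between 4 h and 8 h, 11 genes passed, 7 higher and 4 lower at 8 h, or 0.111% of those tested. Without the run term 0 passed, with 357 at an unadjusted p under 0.05. Nr1d1, the clock repressor REV-ERB alpha, was at 7.65 and 8.22 at 4 h and at 6.18 and 6.36 at 8 h (log2 difference -1.67 ± 0.15, SE, adjusted p = 0.00122). Both 8 h arrays lay below the detection level, so the size of this fall is not resolved. At 4 h Nr1d1 was at -0.32 against 0 h and had not passed. Gadd45a, which fell at 4 h, was 0.98 higher at 8 h than at 4 h (8.81 and 9.20 to 9.84 and 10.13). Slc5a3, a carrier of myo-inositol, was 0.90 higher at 8 h (9.41 and 9.48 to 10.38 and 10.30) after a fall of 0.79 by 4 h. Ogn (0.88), Crebrf (0.85) and Ypel3 (0.82) were higher too. Rrp15 (-1.02), Fgf21 (-0.89) and the transglutaminase Tgm2 (-0.78) were lower, and Fgf21 lay below the detection level at every time.

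**Figure D4:**
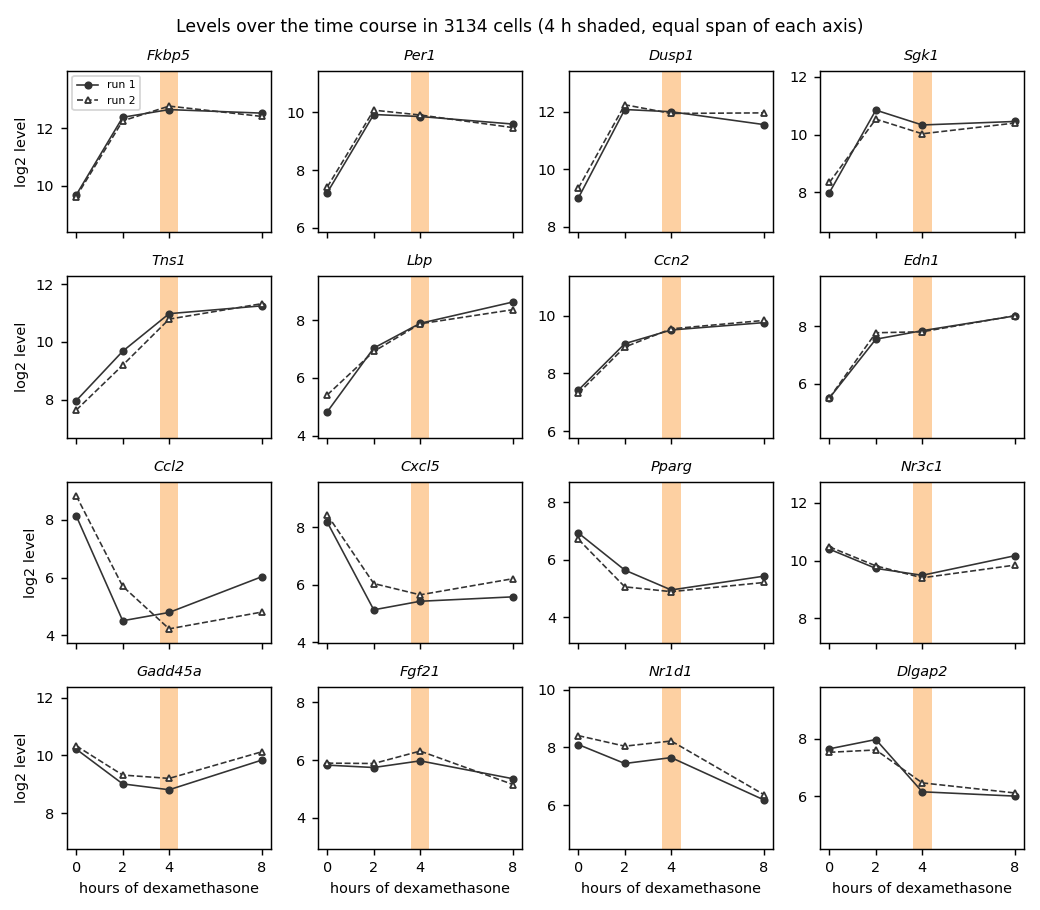
Log2 levels of 16 genes in 3134 cells at 0, 2, 4 and 8 h of dexamethasone, run 1 with filled circles and run 2 with open triangles, the 4 h arrays shaded and every axis spanning the same number of log2 units. Tns1 and Dlgap2 differ between 2 h and 4 h, Nr1d1 falls and Gadd45a is higher between 4 h and 8 h, and Fkbp5, Per1 and Dusp1 are near their 4 h level at 2 h.

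Whether the 4 h response was particular to these cells was tested against the 4 h response of AtT-20, which has its own 0 h arrays. The difference of the responses passed in 266 genes, or 2.68% of those tested, with 178 higher in 3134 and 88 lower (52 without the run term). Orm1 had a difference of 5.14 ± 0.31 (SE, adjusted p = 5.61e-06). In AtT-20 it was at 4.36 and 5.29 before and 3.68 and 3.51 after, all below the detection level, so the part of the difference that comes from AtT-20 (-1.23) cannot be resolved. Pdk4 (3.92), Orm2 (3.73), Lcn2 (3.58), Mt2 (3.23) and Fam107a (2.92) were the other leading values on this side. Mt2 in AtT-20 was at 10.66 and 9.60 at 0 h, above its 0 h level in 3134, and at 11.53 and 10.14 at 4 h. Pdk4, Lcn2 and Fam107a lay below the detection level in AtT-20 at both times. The same holds on the lower side for Ccl2 (-4.05), Cxcl5 (-2.83) and Cxcl3 (-2.57), which were below the detection level in AtT-20 at 0 h, where a fall cannot be resolved.

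Other genes rose in AtT-20 and did not pass in 3134. Mdm1, a centriole gene, was at 7.87 and 7.72 and then 7.81 and 7.77 in 3134, against 8.07 and 8.26 and then 10.77 and 11.11 in AtT-20 (difference -2.78 ± 0.17, SE, adjusted p = 5.76e-06). Arhgef3, a guanine nucleotide exchange factor, had a difference of -2.47, and Ttr, the carrier of thyroid hormone, of -2.22, though Ttr was below the detection level in 3134. Both lines raised Fkbp5, by 3.05 in 3134 and 1.11 in AtT-20 (log2), and this difference passed (adjusted p = 0.000231). Per1 rose by 2.57 and 1.17 (difference adjusted p = 0.00126). Sgk1 rose by 2.02 and 1.95, Sesn1 by 1.97 and 1.81 and Klf15 by 1.70 and 1.75, and their differences were 0.07, 0.16 and -0.05 with adjusted p-values of 0.95, 0.834 and 0.97. A p that misses the threshold does not show that the lines respond alike. Dusp4 went opposite ways, -1.20 in 3134 and 0.74 in AtT-20 (difference adjusted p = 0.000307).

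Exon probesets allow a test of unequal change within a gene. The diffSplice test of limma, which takes 1 spread for all probesets of a gene, called 237 of 11433 genes (2.07%), of which 61 also passed as genes. The 5 with the smallest adjusted p were Arrdc2, Tsc22d3, Tmem184c, Myh10 and Phf12. With a spread for each probeset, a test added after the data were seen, 7 genes passed (0.0612%), all among the 237, and Tmem184c, Myh10 and Phf12 did not (adjusted p = 0.553, 1 and 1). Without the run term that test called 0 genes, with 211 at an unadjusted p under 0.05. The 7 genes were Prr15l, Tsc22d3, M1ap, Selenbp1, Arrdc2, Lbp and Selenbp2, and Selenbp1 and Selenbp2 are near-identical copies whose probes can share signal.

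In Tsc22d3, 9 of the 12 probesets tested were at changes of 2.23 to 4.14 on the log2 scale, while the other 3 were at -0.40, 0.06 and 0.43. The first of these was at 6.05 and 6.16 at 0 h and at 5.89 and 5.53 at 4 h. The second was at 3.88 and 4.42 and then 3.64 and 4.78, so both lay below the detection level, where a change cannot be resolved. The third was above the detection level throughout, at 8.32 and 9.12 and then 8.77 and 9.53. With a spread for each probeset, the first alone passed (limma, adjusted p over probesets = 0.0232), and the third did not (0.114). The gene has several promoters and its isoforms differ at their 5' end, and which exon each probeset lies in was not analysed here. In Lbp, 3 of 20 probesets were at 0.07, 0.08 and 0.21 while the others were at 1.25 to 4.47. The probeset at 0.21 lay below the detection level at both times (5.56 and 4.18, then 5.87 and 4.30). In Arrdc2, changes of the 21 probesets ran from -0.03 to 3.87. The probeset at -0.03 was at 5.68 and 6.63 and then 6.19 and 6.05, near or below the detection level, where a change cannot be resolved. With a spread for each probeset it alone passed in this gene (limma, adjusted p over probesets = 0.0232). The next, at a change of 0.71, lay above the detection level and did not pass (0.105). Prr15l had 1 probeset that went from 4.78 and 4.90 to 8.63 and 8.31, 2 at changes of 2.46 and 1.99, and 2 at 0.04 and 0.13. M1ap did not pass as a gene (0.14), but 1 of its 13 probesets went from 6.42 and 5.99 to 8.90 and 8.19. Another of its probesets went from 5.06 and 6.05 to 8.17 and 6.995 (diffSplice adjusted p = 0.0103, and 0.68 with a spread for each probeset). Saturation and background of single probesets were not tested.

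**Figure D5:**
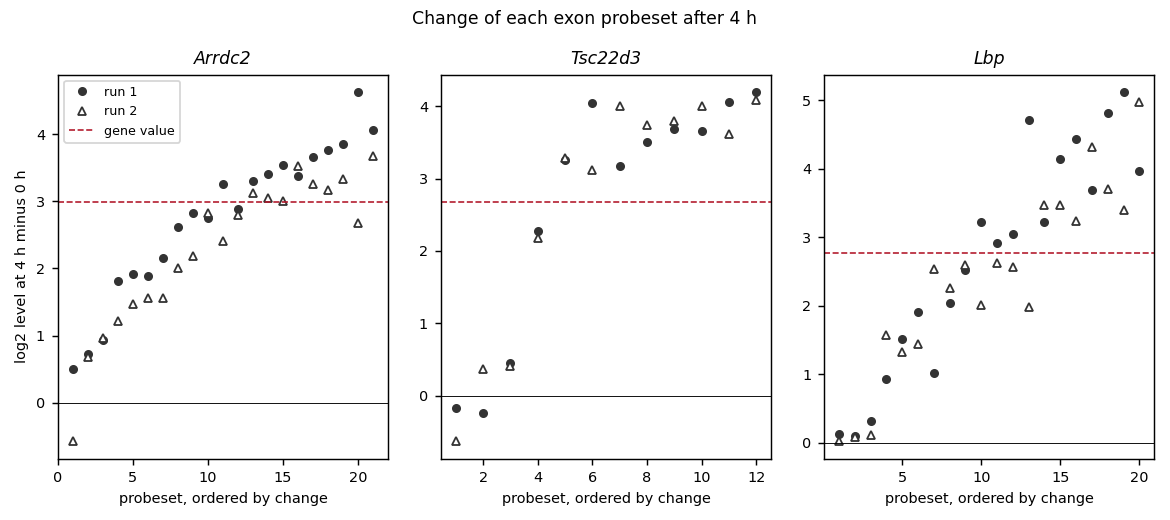
Change of each exon probeset of Arrdc2, Tsc22d3 and Lbp between 0 h and 4 h (log2, run 1 filled circles, run 2 open triangles), ordered by mean change; the red dashed line is the gene's log2 fold change. Tsc22d3 and Lbp each have 3 probesets apart from the rest in both runs, with mean changes of -0.40 to 0.43 in Tsc22d3 and 0.07 to 0.21 in Lbp.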

How the data were processed

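RNA was measured on 15 Affymetrix mouse exon arrays of 1 colour. The deposited values are log2 values per exon probeset. The submitters' processing notes name Affymetrix Expression Console and RMA, with no version or setting given in the sources used here. Of 228090 probesets, 207232 had 1 gene symbol in the platform annotation, 3882 several and 16976 none, and those with 1 were used. Of 16207 symbols, 2111 were updated through RefSeq names (GRCm38.p6) and 41 kept as given. The arrays were quantile normalized together because their deposited medians differed (6.76 to 8.14). No pair of arrays correlated above 0.986, and none was taken for a repeat.

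Group means and the run within each line were estimated by limma 3.58.1 (lmFit, then eBayes, 2-sided) from all 15 arrays (5 residual degrees of freedom, 12.1 after moderation), with R 4.3.3 and its package data.table (version 1.17.8) and with Benjamini-Hochberg adjustment over 9919 genes and a threshold of 0.05. Adjusted p-values of genes come from limma. The median standard error of a 4 h against 0 h change was 0.153, a precision set by the number of arrays. The run numbers come from the serial numbers in the titles. The runs were taken as pairs because the comparison was set up by run. Deviations of arrays from their group means correlated at 0.491 to 0.591 in the 9 pairs that share run and line. In the 12 pairs with the same run number but different lines, which the fit does not pair, the correlation was 0.276 to 0.39. The exon test used diffSplice with a Simes test per gene, and an added test used limma on each probeset minus the mean of its gene's other probesets. The tests were tried on simulated data.

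Named genes were the 15 largest changes each way, up to 5 members per list with the smallest p among those that passed, the 5 largest each way between times, the 6 largest each way between lines, the 5 smallest p-values of the exon test, and always Nr3c1, Fkbp5, Per1 and Tsc22d3. Other list members are given by value. The comparison, the gene lists and the members named were chosen with earlier results of these data known. Alternatives were other scalings, filters, gene summaries, sets of arrays, no run term, and each array left out.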

Additional observations from a re-analysis of the deposited data

Results flagged for a closer look

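Genes whose values differed between times or between lines by a test of the difference are listed here by value. The response at 4 h differed between 3134 and AtT-20 in 266 genes by limma. On the log2 scale the differences (3134 minus AtT-20) were 5.14 for Orm1 (of which the AtT-20 part, -1.23, lies below the detection level), 3.92 for Pdk4, 3.73 for Orm2, 3.58 for Lcn2, 3.23 for Mt2 and 2.92 for Fam107a. They were -4.05 for Ccl2, -2.83 for Cxcl5, -2.78 for Mdm1, -2.57 for Cxcl3, -2.47 for Arhgef3 and -2.22 for Ttr. The 2 genes that differed between 2 h and 4 h were Tns1 (1.45) and Dlgap2 (-1.48). The 11 that differed between 4 h and 8 h included Gadd45a (0.98), Slc5a3 (0.90), Ogn (0.88), Crebrf (0.85), Ypel3 (0.82), Nr1d1 (-1.67), Rrp15 (-1.02), Fgf21 (-0.89) and Tgm2 (-0.78). Groups of 2 arrays are too small for a test of single outlying arrays.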

How the results depend on the processing

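For 4 h against 0 h, where 515 genes passed, the count was 189 with no replicate block (the run term left out), 330 with no filter on dim genes and 969 with the gene value as a mean over probesets. Leaving out the 4 h array of run 1 or run 2 gave 264 or 272, and leaving out the 0 h array of run 1 or run 2 gave 256 or 232. The other 9 settings, of which 1 was added after the data were seen (only genes at the detection level in 3134 at 0 h or 4 h), gave 471 to 615. For 4 h against 2 h (2 genes), it was 23 on the deposited scale (3 higher and 20 lower), 19 with arrays centred on their medians (11 and 8), 0 with no replicate block, with the compared arrays alone and with no filter, 4 with a filter at the median of all values and with at least 6 probesets, 91 with means over probesets, and 0 to 1 without single arrays. For 8 h against 4 h (11 genes, 7 higher), it was 1 on the deposited scale (lower), 4 with centred arrays (all lower), 0 with no replicate block, 52 with the compared arrays alone, 1 with the 3134 arrays alone and with no filter, 140 with means over probesets, 3 with at least 1 probeset, and 0 to 3 without single arrays. For the difference between lines (266 genes), it was 138 on the deposited scale (68 higher and 70 lower), 52 with no replicate block, 128 with no filter, 527 with means over probesets and 138 to 236 without single arrays. For exon use (237 genes), it was 86 on the deposited scale, 30 with no replicate block, 157 with a filter at the median of all values, 7 with a spread for each probeset (added after the data were seen) and 89 to 352 without single arrays. The causes were not tested.

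No named gene changed direction under any alternative run, which is likely for genes that were named because they passed in these same arrays. Of 123 named in the 4 h comparison, 47 lost the call with no replicate block, 21 on the deposited scale, 24 with no filter, and 34 to 41 without 1 of the 4 arrays. Changes of genes below log2 6.59, the detection level, are not resolved.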

Other observations

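Of the 515 genes that passed at 4 h, 385 were on no gene list, 258 higher and 127 lower. The genes in this paragraph were chosen after their values were seen. Sik1, a kinase that restrains CREB signalling, rose from 7.60 and 7.57 at 0 h to 9.48 and 9.78 at 4 h. Its log2 fold change was 2.05 ± 0.16 (SE, adjusted p = 7.72e-06 by limma). Vdr, the vitamin D receptor, rose from 8.80 and 8.99 to 10.59 and 10.45, and Rhob, a small GTPase, from 9.16 and 9.47 to 11.16 and 10.91. Both arrays at 4 h lay above both at 0 h in each of them. Pkp1, a plakophilin of desmosomes, went from 8.93 and 9.44 to 10.77 and 11.26, and Apobec1, the editing enzyme of apolipoprotein B transcripts, from 8.17 and 8.30 to 10.13 on both arrays. In AtT-20 the same genes were at 0.14 (Sik1), -0.06 (Vdr), -0.28 (Rhob), -0.05 (Pkp1) and -0.05 (Apobec1) after 4 h (log2). No test of the difference between lines is given for them, and their AtT-20 levels were not set against the detection level. These values therefore do not show a response particular to 3134. Foxp1, a forkhead factor, was at 1.14 in 3134.

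Among the lower genes on no list were the Notch effector Rbpj (-1.13), the dioxin receptor Ahr (-1.05), the estrogen-binding receptor Gper1 (-1.09) and Artn, a relative of Gdnf (-1.18). Traf3, an adaptor of the noncanonical NF-kB pathway, was at -0.87 and Ripk2, a kinase of innate sensing, at -0.95.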
